A study of Mus musculus with 9 samples.

Results

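The genes described here are 38 mouse genes of the ATF4 amino acid stress pathway and the cytosolic tRNA synthetases. They were chosen by symbol from the 54532 named genes of a count table: 6 for ATF4 and its partner transcription factors, 5 for kinases of eIF2 alpha and their feedback, 2 further ATF4 targets, 10 for amino acid and one-carbon synthesis, 12 for tRNA synthetases and 3 for the endoplasmic reticulum (ER). The table held 39 rows under these symbols, because Ddit3 is listed at 2 IDs, 1 of which had no count in any library; all 38 genes passed the filter on low counts. RNA was sequenced in 9 libraries of cultured mouse cells of the strain Sv129 x GOF/GFP F1, 3 for each of 3 cell types, numbered 1 to 3 in the labels. ABSC are labelled as trophoblast stem cell (TSC) like cells derived from AFSC, at passage 25 to 30, and were kept in Activin A and BMP4. ALSC are labelled as stem cells derived from AFSC, at passage 20 to 25; their medium is taken here as Activin A with leukemia inhibitory factor, since the protocol writes that recipe under another abbreviation. AFSC are labelled as epiblast stem cell (EpiSC) like cells from blastocysts, at passage 15 to 20, and were derived on fibronectin in Activin A and bFGF. All 3 media had the same base, which contained L-glutamine and nonessential amino acids. Passage rises with the cell type, and a second RNA kit is named for ALSC, so neither can be told apart from the cell type. The labels do not say whether libraries of a cell type came from separate cultures, so p-values measure the spread between these libraries, which may be technical.

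ATF4 is a bZIP transcription factor that cells make when translation initiation is slowed by phosphorylation of eIF2 alpha. The kinase GCN2 (Eif2ak4) does this when uncharged tRNA accumulates, and PERK (Eif2ak3) when unfolded proteins accumulate in the ER. Because ATF4 is controlled largely at translation, its mRNA level is a poor gauge of its protein, and its targets are usually read instead: enzymes that make asparagine, serine, glycine and proline, amino acid transporters, tRNA synthetases and feedback genes such as Trib3 and Ppp1r15a.

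ATF4 binds, together with C/EBP proteins, to the C/EBP-ATF response element, searched here as TGATGNAA on both strands of RefSeq promoters (assembly GRCm38.p6, from 250 bases before to 50 after the start). A window was found for 32 of the 38 genes (Mars under its newer name Mars1), and 12 of the 32 held the element (37.5%), against 4.51% of 27025 genes with windows. Matches in the windows of Trib3, Iars and Yars lay after the start and are not printed. The stretches below, from before the start, are shown because they belong to genes whose levels are described below; each runs 5′ to 3′ on the strand of its gene, the capitals mark the element or its complement on the other strand, and stretches that touch an annotated exon were cut to at most 30 bases.
Chac1: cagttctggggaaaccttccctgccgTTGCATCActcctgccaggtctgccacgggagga
Vldlr: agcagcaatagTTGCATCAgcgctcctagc
Pycr1: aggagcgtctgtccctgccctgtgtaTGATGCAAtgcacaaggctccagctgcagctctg
Herpud1: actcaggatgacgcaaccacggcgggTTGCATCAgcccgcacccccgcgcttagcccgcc
Atf3: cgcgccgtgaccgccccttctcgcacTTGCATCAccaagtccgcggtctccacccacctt
Asns: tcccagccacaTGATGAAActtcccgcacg
Gars: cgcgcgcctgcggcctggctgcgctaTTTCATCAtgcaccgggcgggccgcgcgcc
Tars: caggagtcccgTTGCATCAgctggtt
Hspa5, with the ER stress element in capitals: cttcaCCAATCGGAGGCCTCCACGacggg

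The stretches lie at chr2:119351023-119351082 (Chac1, plus strand), chr19:27216809-27216838 (Vldlr, plus), chr11:120643818-120643877 (Pycr1, minus), chr8:94386291-94386350 (Herpud1, plus), chr1:191183410-191183469 (Atf3, minus), chr6:7693214-7693243 (Asns, minus), chr6:55037945-55038000 (Gars, plus), chr15:11399659-11399684 (Tars, minus) and chr2:34772020-34772048 (Hspa5, plus). The element began 193 bases before the start in Chac1, 200 in Vldlr, 103 in Pycr1, 112 in Herpud1, 110 in Atf3, 30 in Gars, 23 in Asns and 15 in Tars. Its form TTGCATCA, or TGATGCAA on the other strand, was present in windows of 9 of the 32 genes. Its background was counted over windows and not over genes, and was 0.895% of all 32851 windows. The ER stress element, CCAAT and CCACG with 9 bases between them on either strand, was found in Hspa5 alone of the 32 genes. Of 27025 genes with windows 0.137% held it. In Hspa5 it began 65 bases before the start. A match is a description of the letters and not a measured binding site.

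The libraries held 19020419 to 21627656 counts, so the depth was nearly even. Libraries numbered 1 stood apart from those numbered 2 and 3 in all 3 cell types, and ABSC 1 (ABSC, number 1) had 0.794% of its counts on mitochondrial genes, against 1.36% to 1.68% in the other libraries. Of 5 epiblast markers, Pou5f1 was at 1179 to 1261 CPM in ABSC, 909 to 969 CPM in ALSC and 1041 to 1122 CPM in AFSC (CPM are library-scaled counts, after TMM scaling). Fgf5 was at 13.5 to 18.3 CPM in ABSC, 120 to 166 CPM in ALSC and 184 to 193 CPM in AFSC. Against AFSC, Fgf5 (log2 change -3.53), Pou3f1 (-0.52) and Otx2 (-0.34) were lower in ABSC, and Nanog (0.37) and Pou5f1 (0.19) higher. Of 6 trophoblast markers, Hand1 was at 188 to 244 CPM, Eomes at 37.4 to 162 CPM, Tfap2c at 2.90 to 12.2 CPM, Cdx2 at 0.835 to 6.43 CPM, Gata3 at 0.393 to 1.10 CPM and Elf5 at 0 to 0.0506 CPM in ABSC. Hand1 (log2 change 9.75) and Cdx2 (5.04) were higher in ABSC than in AFSC, where Hand1 was at 0.155 to 0.376 CPM and Cdx2 at 0 to 0.235 CPM. Eomes (-0.07) and Tfap2c (1.18) did not pass the test, and Gata3 and Elf5 were too low to be tested. Eomes was at 78.8 to 151 CPM and Tfap2c at 2.22 to 5.39 CPM in AFSC. There Gata3 was at 0.142 to 0.282 CPM and Elf5, above its level in ABSC, at 0.155 to 0.329 CPM. In ALSC Tfap2c was at 15.7 to 20.8 CPM, above ABSC, Eomes at 53.2 to 165 CPM and Hand1 at 1.83 to 2.53 CPM. Fibroblast markers lay between 0 and 13.9 CPM in all libraries.

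The main contrast in these genes was between libraries numbered 1 and the rest. Of the 38 genes, 30 were higher in number 1 than in numbers 2 and 3 and 0 were lower, against 18.2% higher and 16.4% lower of the 16178 genes tested (edgeR's quasi-likelihood test with cell type and number in the fit, Benjamini-Hochberg adjusted p under 0.05 over all genes). The median log2 change was 0.40 over the 38 genes and 0.01 over all genes tested. The 3 libraries numbered 1 all lay above all 6 others for 25 of the 38 genes, against a background of 9.30%. Number 1 was the highest of its cell type in ABSC, ALSC and AFSC alike for 31 genes, against 21.5%. Counts of genes called in either direction stayed at 30 to 32 with any single library removed. Over the 9 removals, Hspa5 passed as lower in 2, Ppp1r15a as lower in 1 and Atf5 as higher in 1. By unadjusted p under 0.05, 31 were higher and 1 lower, against 3759 higher and 3377 lower of the 16178 genes tested. DESeq2 called 30 higher and 0 lower, and of all the genes it called 49.2% were higher. The 38 genes and the split by number were chosen with earlier results of these data known. The counts, shares and p-values thus describe these 9 libraries only and are no independent test of the shift. No label says what the number stands for.

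**Figure D1:**
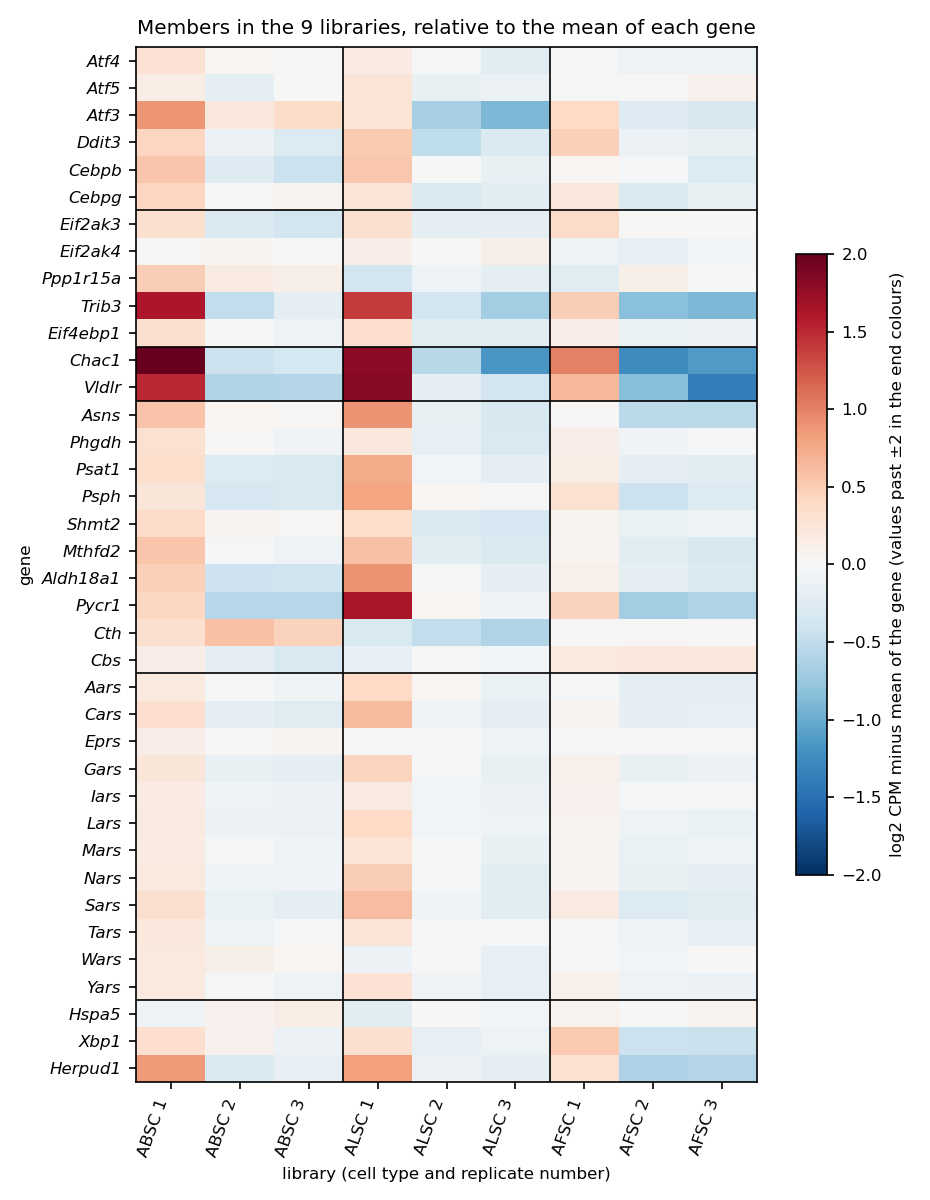
Level of each of the 38 genes in each library, as log2 CPM minus the mean of the gene over the 9 libraries; rows are genes grouped by role, columns are libraries grouped by cell type, and red is above the mean. The columns numbered 1 are red for most genes, strongest for Chac1, Vldlr, Trib3 and, in ALSC, Pycr1, while Cth follows the cell type.

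Chac1 and Vldlr showed the largest shifts. Chac1 encodes an enzyme that degrades glutathione and is a known ATF4 target (chr2:119351229-119354381, plus strand). It had 83.7 CPM in ABSC 1, 67.6 CPM in ALSC 1 and 39.3 CPM in AFSC 1, against 8.13 to 15.3 CPM in the 6 libraries numbered 2 and 3, with a median of 11.1 CPM. The ranges were far apart, and Chac1 was 5.46-fold higher in number 1 (log2 change 2.45, SE 0.10, edgeR adjusted p = 3.98e-08). It ranked 8th of all genes tested in its log2 change. Vldlr encodes the very low density lipoprotein receptor. It had 37.2, 46.2 and 20.8 CPM in ABSC 1, ALSC 1 and AFSC 1, against 5.07 to 11.4 CPM in the others, with a median of 8.64 CPM. Vldlr was 4.02-fold higher in number 1 (log2 change 2.01, SE 0.09, edgeR adjusted p = 6.33e-09). In both genes AFSC 1 was the lowest of the 3 libraries numbered 1 and still above all 6 others.

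Of ATF4 and its bZIP partners, 5 of 6 were higher in number 1, and their shifts were smaller than that of Chac1. Atf4 (chr15:80255184-80257541, plus strand) had 401 CPM in ABSC 1, 371 CPM in ALSC 1 and 324 CPM in AFSC 1, against 287 to 338 CPM in the others, with a median of 315 CPM. AFSC 1 thus lay within the range of the others, and the log2 change was 0.21 (SE 0.05, edgeR adjusted p = 0.00329). Within AFSC alone the log2 change of Atf4 was 0.07, and it did not pass the test (edgeR adjusted p = 0.476). Atf3, a stress-induced repressor of the same family, had 31.3, 20.6 and 22.6 CPM in ABSC 1, ALSC 1 and AFSC 1, against 9.17 to 22.0 CPM in the others, with a median of 14.02 CPM. The ranges overlapped because ABSC 3, at 22.0 CPM, lay above ALSC 1; the log2 change was 0.76 (SE 0.09, edgeR adjusted p = 3.31e-05). Ddit3, which encodes CHOP, a factor linked to cell death in ER stress, had 9.33, 10.02 and 9.64 CPM in ABSC 1, ALSC 1 and AFSC 1, against 4.91 to 6.43 CPM in the others, with a median of 6.03 CPM. Its libraries numbered 1 were close to each other and above all others (log2 change 0.71, SE 0.12, edgeR adjusted p = 0.000357). Cebpb and Cebpg, both C/EBP factors that can pair with ATF4, were higher by 0.58 and 0.45 on the log2 scale, and Atf5, at 0.19, did not pass the test.

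Among the eIF2 alpha kinases and feedback genes, Trib3, Eif2ak3 and Eif4ebp1 were higher in number 1. Trib3 encodes a pseudokinase that is induced by ATF4 and CHOP and restrains ATF4. It had 72.9, 62.9 and 33.6 CPM in ABSC 1, ALSC 1 and AFSC 1, against 12.7 to 20.8 CPM in the others, with a median of 15.9 CPM. No library numbered 2 or 3 reached any numbered 1 (log2 change 1.77, SE 0.11, edgeR adjusted p = 1.6e-06). The PERK gene Eif2ak3 (log2 change 0.51) and Eif4ebp1 (0.39), an inhibitor of cap-dependent translation, shifted less. Eif2ak4, the amino acid sensing kinase, had a log2 change of 0.03 and Ppp1r15a, the stress-induced subunit of the eIF2 alpha phosphatase, one of -0.05; neither passed the test.

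**Figure D2:**
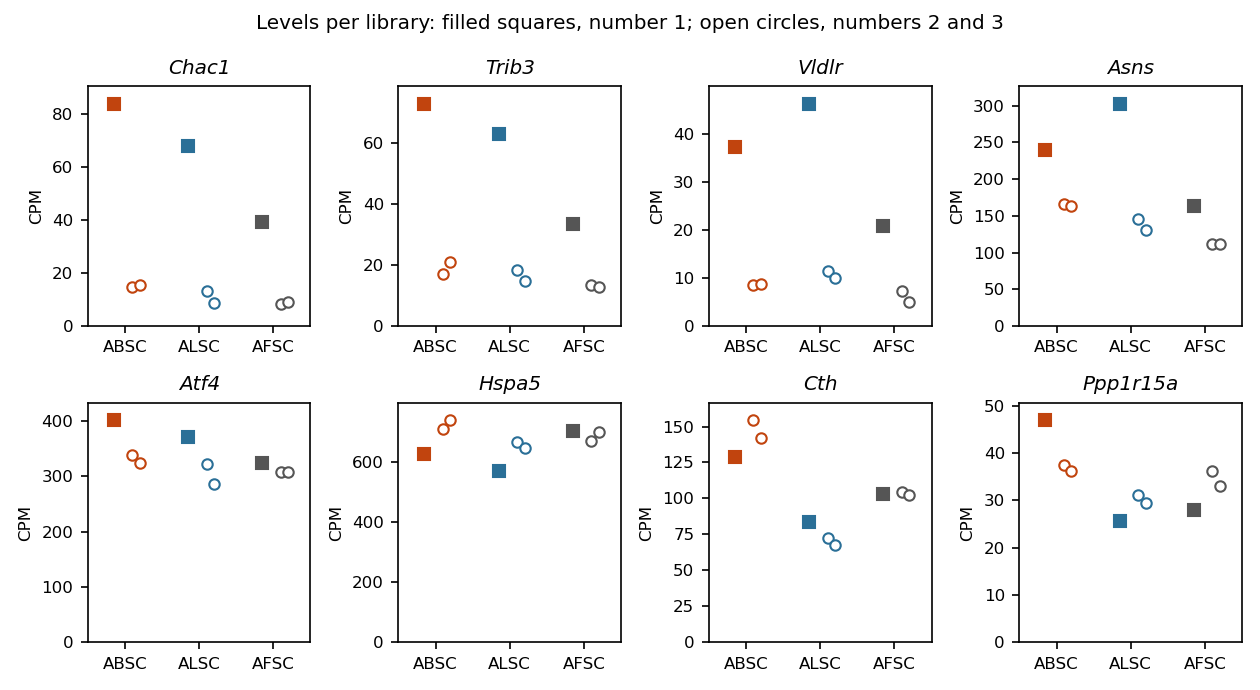
CPM of 8 genes in each library (vertical axis from 0), by cell type; filled squares are number 1 and open circles are numbers 2 and 3. The squares of Chac1, Trib3 and Vldlr stand above every circle; those of Atf4 lie nearer the circles; Hspa5 lies lower in ABSC 1 and ALSC 1; and Cth is ordered by cell type.

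Of the 10 amino acid and one-carbon genes, 8 were higher in number 1. Pycr1, which catalyses the last step of proline synthesis in mitochondria, had 25.7, 59.9 and 26.5 CPM in ABSC 1, ALSC 1 and AFSC 1, against 11.9 to 19.8 CPM in the others, with a median of 13.0 CPM. ALSC 1 stood highest by far (log2 change over the 3 cell types 1.27, SE 0.11, edgeR adjusted p = 3.46e-06). Aldh18a1, which makes the proline precursor upstream of Pycr1, had 155, 208 and 119 CPM in ABSC 1, ALSC 1 and AFSC 1, against 83.2 to 110 CPM in the others, with a median of 94.0 CPM (log2 change 0.76, SE 0.12, edgeR adjusted p = 0.00339). Asns, asparagine synthetase and a standard readout of the amino acid response, had 240, 303 and 164 CPM in ABSC 1, ALSC 1 and AFSC 1, against 111 to 166 CPM in the others, with a median of 138 CPM. AFSC 1 lay just below ABSC 2 and ABSC 3 and above AFSC 2 and AFSC 3 (log2 change 0.75, SE 0.12, edgeR adjusted p = 0.00408).

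The serine pathway shifted at every step measured. Phgdh, its first enzyme, had a log2 change of 0.32, Psat1, the second, of 0.62, and Psph, the last, of 0.67. Psat1 had 530, 697 and 462 CPM in ABSC 1, ALSC 1 and AFSC 1, against 338 to 400 CPM in the others, with a median of 362 CPM (SE 0.07, edgeR adjusted p = 0.000208). Psph had 48.3, 70.8 and 50.1 CPM in ABSC 1, ALSC 1 and AFSC 1, against 30.2 to 41.9 CPM in the others, with a median of 33.3 CPM (SE 0.06, edgeR adjusted p = 2.2e-06). In both, all 3 libraries numbered 1 lay above all others. Mthfd2, a mitochondrial folate enzyme that uses the one-carbon unit from serine, had 200, 205 and 144 CPM in ABSC 1, ALSC 1 and AFSC 1, against 110 to 133 CPM in the others, with a median of 117 CPM (log2 change 0.61, SE 0.07, edgeR adjusted p = 5.74e-05). Shmt2, which releases that unit in mitochondria, had a log2 change of 0.41. Cth and Cbs, the 2 transsulfuration enzymes that make cysteine from homocysteine, had log2 changes of 0.01 and 0.08 and did not pass the test.

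The 12 tRNA synthetases, which load amino acids onto tRNA, moved by small amounts: 10 were higher in number 1, with log2 changes of 0.21 (Tars) to 0.56 (Sars) in those 10. Sars, for serine, had 295, 358 and 266 CPM in ABSC 1, ALSC 1 and AFSC 1, against 194 to 222 CPM in the others (SE 0.06, edgeR adjusted p = 9.93e-06). Gars, for glycine, had 446, 516 and 405 CPM there, against 333 to 367 CPM in the others (log2 change 0.40, SE 0.05, edgeR adjusted p = 5.05e-05). Cars (0.52), Nars (0.37), Lars (0.32), Yars (0.29), Aars (0.29), Mars (0.24) and Iars (0.22) were also higher, by the log2 changes in brackets. Eprs, which joins glutamic acid and proline activities in 1 protein, and Wars, for tryptophan, had log2 changes of 0.06 and 0.04 and did not pass the test. Per kilobase of the gene model, Nars averaged 145 CPM and Gars 122.6 CPM over the 9 libraries, near the 141 CPM per kilobase of Atf4, while Chac1 averaged 17.6 and Vldlr 1.71 CPM per kilobase.

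Of the 3 ER genes Herpud1 and Xbp1 were higher in number 1, and Hspa5 did not pass the test. Herpud1, an ER-associated degradation factor, had 34.2, 33.5 and 23.4 CPM in ABSC 1, ALSC 1 and AFSC 1, against 12.4 to 17.5 CPM in the others, with a median of 16.1 CPM (log2 change 0.98, SE 0.07, edgeR adjusted p = 4.17e-07). Xbp1, the transcription factor spliced by IRE1, had 34.8, 34.3 and 39.8 CPM in ABSC 1, ALSC 1 and AFSC 1, against 20.3 to 29.4 CPM in the others, with a median of 25.0 CPM (log2 change 0.59, SE 0.10, edgeR adjusted p = 0.000815). Gene counts do not separate spliced from unspliced Xbp1. Hspa5, the ER chaperone BiP and a target of the ATF6 arm, had 624, 569 and 703 CPM in ABSC 1, ALSC 1 and AFSC 1, against 644 to 738 CPM in the others, with a median of 684 CPM. ABSC 1 and ALSC 1 were below all others and AFSC 1 was among them; the log2 change was -0.12 (SE 0.05) and did not pass the test (edgeR adjusted p = 0.0622). Without AFSC 1 it was -0.21 and passed (edgeR adjusted p = 0.00218), and it also passed without AFSC 2 at -0.16 (edgeR adjusted p = 0.032).

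Other genes of the same pathways, from lists drawn up for comparison, shifted in part; their counts stand beside the 18.2% higher and 16.4% lower of all genes tested, and no difference from that background was tested. Of 18 further ATF4 targets tested, 12 were higher and 2 lower in number 1, with a median log2 change of 1.11; Ddit4, an inhibitor of mTORC1, averaged 592 CPM in number 1 and 144 CPM in the others (log2 change 2.03), and Jdp2, a bZIP repressor, 9.21 and 2.58 CPM (1.76). Of 12 amino acid transporters 5 were higher and 2 lower, led by the glycine carrier Slc6a9 (9.63 CPM in number 1, 3.48 CPM in the others, log2 change 1.43), Slc1a4 (120 and 76.2 CPM, 0.64) and the leucine carrier Slc7a5 (398 and 266 CPM, 0.58). Of 12 other cytosolic synthetases and their cofactors 1 was higher, the tRNA exporter Xpot (0.12), and Aimp2 (-0.24), Eef1e1 (-0.19) and Rars (-0.13) were lower; Xpot here and Eif2s2 below were named after their values were seen. Of 17 mitochondrial synthetases 4 were higher and 6 lower, Wars2 (-0.57), Mars2 (-0.49) and Vars2 (0.36) with the largest changes. Of 12 other one-carbon and serine genes 2 were higher and 3 lower; Mat2a, which makes S-adenosylmethionine, averaged 356 CPM in number 1 and 641 CPM in the others (-0.90).

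Other regulators of eIF2 and the other arms of the unfolded protein response were mostly lower or did not pass the test. Of 16 other eIF2 pathway genes 1 was higher (Eif2s2, 0.20) and 7 were lower, with Impact, an inhibitor of GCN2 activation, at 44.0 CPM in number 1 and 72.9 CPM in the others (-0.73) and the double-stranded RNA kinase Eif2ak2 at 15.3 and 24.3 CPM (-0.67). Of 26 genes of the ATF6 and IRE1 arms 3 were higher and 9 lower; Sdf2l1 (0.53) and Dnajb11 (-0.41), both tied to ER folding, and Dnajb9 (-0.29) had the largest changes. Of 9 heat shock genes 2 were higher and 2 lower, with Hspa1b (0.85), Dnajb1 (0.38) and Hspd1 (-0.23) the largest. Of 16 genes that respond to low oxygen 15 were higher, with a median of 0.94, among them Adm (4.93 CPM in number 1, 0.464 CPM in the others, log2 change 3.42), Ankrd37 (1.83) and Ndrg1 (1.80), and Vegfa stands in this list and in that of ATF4 targets. What part oxygen, or the cell makeup of these libraries, had in the shift of the 38 genes was not tested. Of the marker lists, the 5 epiblast genes had log2 changes of -0.10 to 0.04. Of 4 trophoblast genes tested Hand1 was higher (0.31), while Cdx2 (-2.98), Eomes (-1.48) and Tfap2c (-0.97) were lower. Eomes was at 56.5 CPM in number 1 and 155 CPM in the others. Cdx2 reached only 0.153 CPM in ALSC and 0.235 CPM in AFSC, and Hand1 was also low there. The changes of Cdx2 and Hand1 thus rest mostly on ABSC, with 1 library numbered 1. In bulk RNA, fewer cells of a type and less RNA per cell cannot be told apart. Of 4 primitive endoderm genes 1 was higher (Gata6) and of 5 fibroblast genes 1 (Thy1, 10.01 CPM in number 1 and 5.60 CPM in the others). Summed CPM were 71.5 to 286 in number 1 and 143 to 377 in the others for trophoblast markers. They were 0.982 to 30.8 and 0.860 to 22.7 for endoderm markers, and 18.2 to 25.3 and 10.3 to 18.9 for fibroblast markers. The ranges overlapped, but each pools 3 cell types. Hand1 was at 188 to 244 CPM in ABSC and 1.83 to 2.53 CPM in ALSC, and Foxa2 at 0.147 to 0.418 and 14.6 to 20.4 CPM. The overlap thus cannot show whether number 1 differed in these markers within a cell type.

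**Figure D3:**
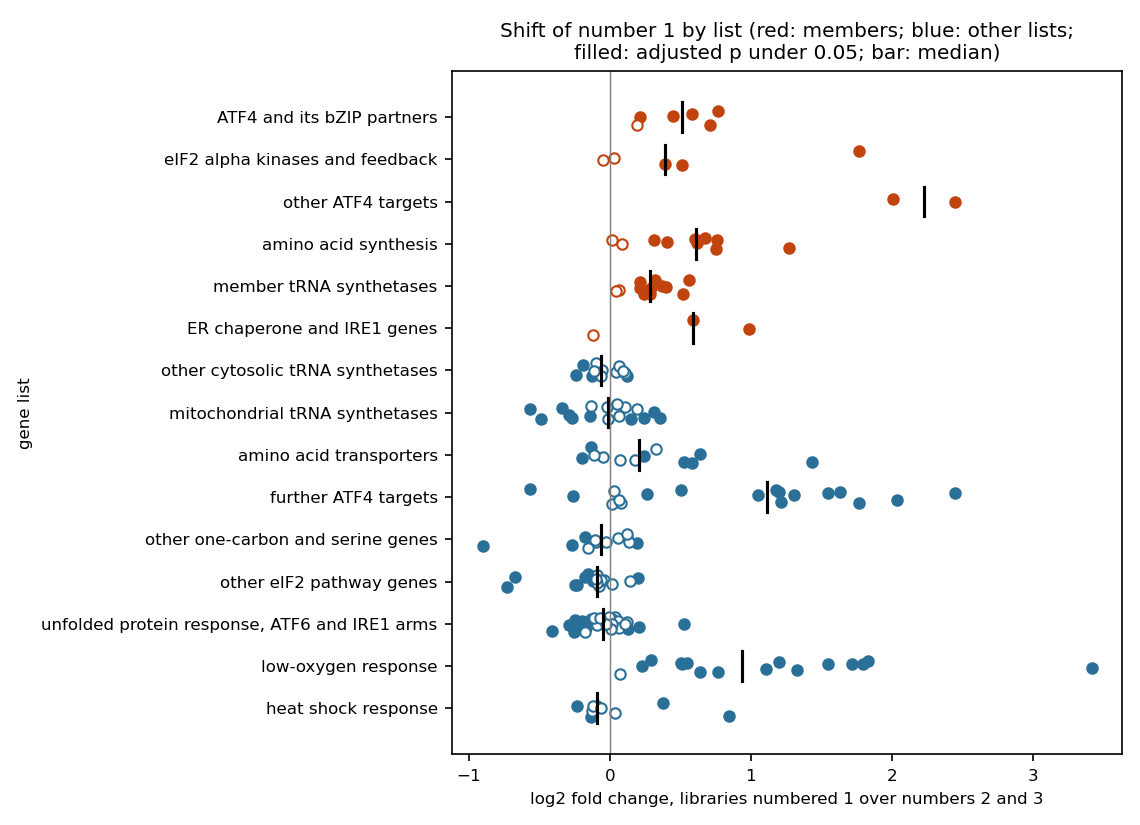
Log2 fold change of number 1 over numbers 2 and 3 (horizontal axis) for each gene of each list (rows); red points are the 38 genes, blue points genes of other lists, filled points passed the test and bars are list medians. The medians of the further ATF4 targets (1.11) and the low-oxygen genes (0.94) lie to the right, and those of the other synthetases, eIF2 genes and ATF6 and IRE1 arms near 0.

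More genes passed for the shift in ABSC and ALSC than in AFSC. Within ABSC, 32 of the 38 genes were higher in number 1 and 2 lower, against 15.8% and 15.0% of all genes; within ALSC 32 were higher and 2 lower, against 17.9% and 16.9%; within AFSC 24 were higher and 1 lower, against 7.80% and 8.20%. A test of the difference itself (edgeR, interaction of cell type and number 1) called 18 of the 38 genes (47.4%), against 8.65% of all genes. DESeq2's test of the same interaction called 8 of the 38 and 359 of all genes, so at least 10 of the 18 calls depend on the tool. The shift was largest in ALSC for 26 of the 38 genes and smallest in AFSC for 27. This order was not counted over all genes, whose share called was also smallest within AFSC, so it may not be particular to the 38. Each cell type has 1 library numbered 1, so the spread behind these p-values comes from numbers 2 and 3 alone, number 1 is assumed to vary as they do, and a difference between cell types in the shift is also a difference between single libraries.

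Of the amino acid enzymes, Asns, Aldh18a1 and Psat1 had the lowest adjusted p-values of the difference. Asns shifted by 0.54 on the log2 scale in ABSC, 1.14 in ALSC and 0.56 in AFSC (edgeR adjusted p of the difference = 2.8e-05). Aldh18a1 shifted by 0.89, 1.00 and 0.35 in ABSC, ALSC and AFSC (edgeR adjusted p = 5.55e-05) and Psat1 by 0.63, 0.86 and 0.35 (edgeR adjusted p = 0.00041). Pycr1, with a higher adjusted p than these, shifted by 0.98 in ABSC, 1.65 in ALSC and 1.11 in AFSC (edgeR adjusted p = 0.00573). Of the synthetases, Cars, Gars, Lars, Nars and Sars passed, and each was largest in ALSC. Xbp1 had its largest shift in AFSC: it shifted by 0.34 in ABSC, 0.45 in ALSC and 0.97 in AFSC (edgeR adjusted p = 0.00842). Hspa5 was lower by -0.21 in ABSC and -0.20 in ALSC and stood at 0.04 in AFSC (edgeR adjusted p of the difference = 0.0354). Ppp1r15a shifted upward in ABSC (0.35) and downward in ALSC (-0.25) and AFSC (-0.31), with an edgeR adjusted p of the difference of 0.00176. Chac1 shifted by 2.49, 2.62 and 2.21 in ABSC, ALSC and AFSC, and these did not differ by the test (edgeR adjusted p = 0.436).

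**Figure D4:**
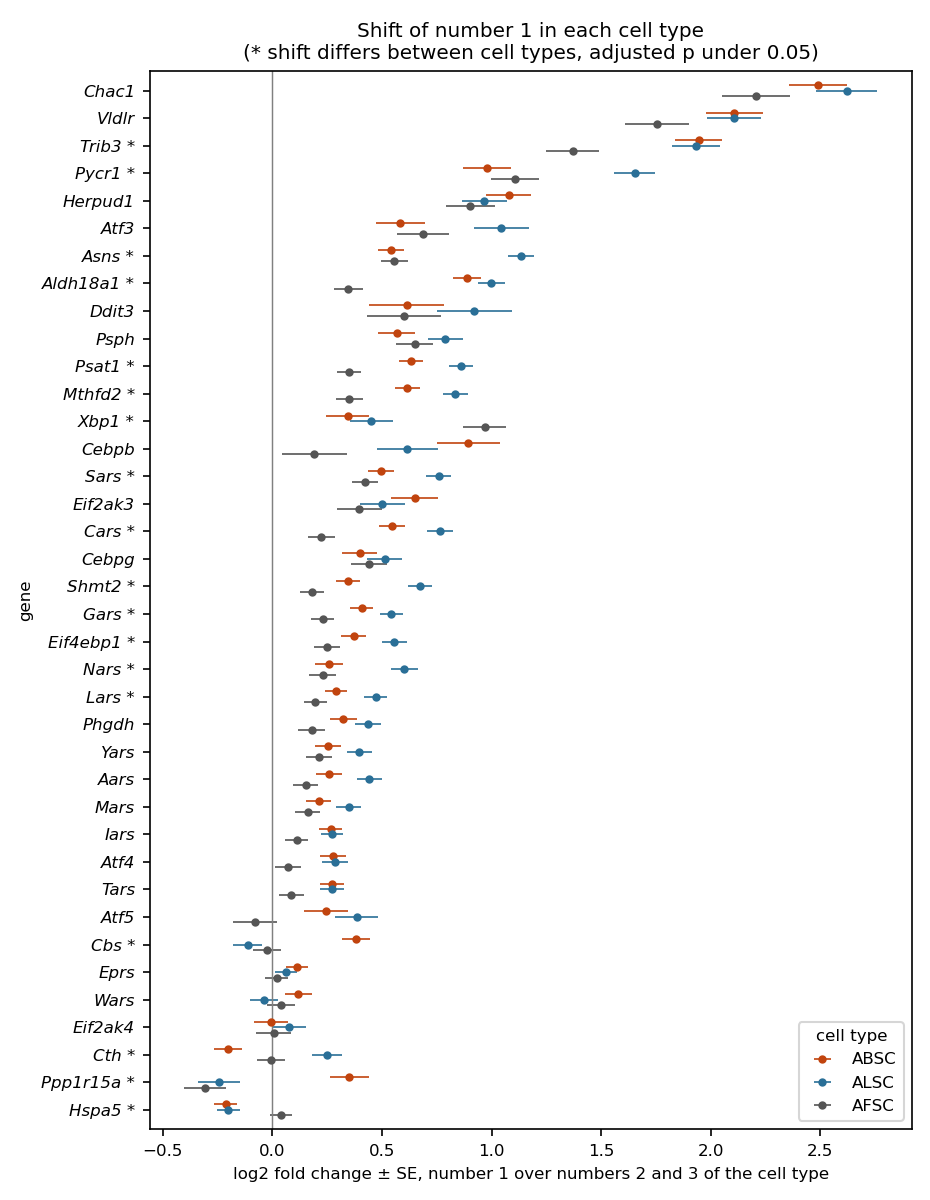
Log2 fold change of number 1 over numbers 2 and 3 within ABSC, ALSC and AFSC, with its SE as bars, for each of the 38 genes; an asterisk marks genes whose shift differed between cell types. Points of ALSC lie farthest right for most amino acid enzymes and synthetases, those of AFSC lie nearest 0 for most, and for Xbp1 the point of AFSC lies farthest right.

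Between cell types, few of the genes passed the test when the number was left out of the fit. In that fit the shift of number 1 counts as spread within each cell type. The spread between libraries that edgeR estimated over all genes (common coefficient of variation) was 0.147, against 0.0717 with the number in the fit. Few calls thus do not show that the cell types were alike in these genes. Between ABSC and AFSC 1 of the 38 genes passed, Cth, higher in ABSC, against 7.98% of all genes tested in either direction. Between ALSC and AFSC 1 passed, again Cth, lower in ALSC, against 7.04%. Between ABSC and ALSC 2 passed, Cth and Ppp1r15a, both higher in ABSC, against 11.0%. ABSC and ALSC were compared with the same 3 AFSC libraries. The median log2 change over the 38 genes was 0.11 for ABSC over AFSC, 0.13 for ALSC over AFSC and -0.02 for ABSC over ALSC, and over all genes each was within 0.011 of 0. Single libraries decided these medians: without ABSC 1 the first was -0.01 and the last -0.15, and without ALSC 1 the second was -0.06 and the last 0.14.

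Cth, cystathionine gamma-lyase (chr3:157894248-157925077, minus strand), was ordered by cell type. It had 129, 154 and 142 CPM in ABSC 1, 2 and 3, 83.3, 72.8 and 67.5 CPM in ALSC 1, 2 and 3, and 103, 104 and 103 CPM in AFSC 1, 2 and 3. The 3 cell types did not overlap. Its mean was 142 ± 12.8 CPM in ABSC, 74.5 ± 8.08 CPM in ALSC and 103 ± 0.917 CPM in AFSC (SD, n = 3 each). The log2 change was 0.45 (SE 0.09, edgeR adjusted p = 0.0111) for ABSC over AFSC, -0.47 (SE 0.09, edgeR adjusted p = 0.0128) for ALSC over AFSC and 0.92 (SE 0.09, edgeR adjusted p = 0.000185) for ABSC over ALSC. The call of ABSC over AFSC missed the threshold without ABSC 2 or AFSC 3, where the highest adjusted p was 0.054, and that of ALSC over AFSC without ALSC 3, AFSC 2 or AFSC 3, where the highest was 0.0635. With the number in the fit, the adjusted p-values of Cth were 0.00106, 0.00102 and 3e-06 in the same order (edgeR). Cbs, which acts just before Cth in transsulfuration, did not share this order: it averaged 76.1 ± 12.4 CPM in ABSC, 77.3 ± 3.45 CPM in ALSC and 94.6 ± 0.969 CPM in AFSC (SD, n = 3 each).

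Ppp1r15a, named here after its values were seen, had 46.9, 37.4 and 36.1 CPM in ABSC 1, 2 and 3, 25.5, 31.1 and 29.4 CPM in ALSC 1, 2 and 3, and 28.0, 36.2 and 33.0 CPM in AFSC 1, 2 and 3. ABSC lay above ALSC without overlap (log2 change 0.48, SE 0.13, edgeR adjusted p = 0.0444). This call was lost when any library but AFSC 1 was left out, with a log2 change of 0.36 to 0.56. Atf4 averaged 355 ± 41.1 CPM in ABSC, 326 ± 42.3 CPM in ALSC and 314 ± 8.89 CPM in AFSC (SD, n = 3 each), and did not pass the test between any pair in this fit. With the replicate number as a block, Atf4 was higher in ABSC than in AFSC by 0.17 (edgeR adjusted p = 0.0446) and did not pass for the other pairs.

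With the replicate number as a block in the fit, more genes passed: 11 for ABSC over AFSC (10 higher, 1 lower), 14 for ALSC over AFSC (11 and 3) and 9 for ABSC over ALSC (7 and 2). The background was also higher, at 19.4%, 22.2% and 28.5% of all genes. Leaving out the 3 libraries numbered 1, which leaves 2 per cell type, gave 14, 13 and 17 of the 38 genes, against 28.5%, 25.4% and 32.2% of 16224 genes tested. The shares of the 38 genes were 28.9%, 36.8% and 23.7% with the block and 36.8%, 34.2% and 44.7% without number 1. They lay above the background in each case but ABSC over ALSC with the block, and the difference from the background was not tested. For ABSC over AFSC, 10 genes passed in both fits: Atf3, Cebpg, Trib3, Chac1, Vldlr, Asns, Mthfd2, Cth and Herpud1, which were higher in ABSC, and Cbs, which was lower. For ALSC over AFSC 10 passed in both, of which Trib3, Vldlr, Asns, Psph, Pycr1, Aars and Herpud1 were higher and Atf3, Cth and Cbs lower. For ABSC over ALSC 9 passed in both, of which Atf3, Cebpg, Ppp1r15a, Chac1, Phgdh, Cth and Wars were higher and Psph and Pycr1 lower.

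The block values of the largest cell type changes are as follows. Pycr1 was higher in ALSC than in AFSC by 0.84 (edgeR adjusted p = 0.000537) and lower in ABSC than in ALSC by -0.81 (edgeR adjusted p = 0.000521); at numbers 2 and 3 it had 13.0 and 13.1 CPM in ABSC, 19.8 and 18.2 CPM in ALSC and 11.9 and 12.7 CPM in AFSC. Atf3 was higher in ABSC than in ALSC by 0.89 (edgeR adjusted p = 4.12e-05), with 19.8 and 22.0 CPM in ABSC and 10.8 and 9.17 CPM in ALSC at numbers 2 and 3. Chac1 was higher in ABSC than in AFSC by 0.93 (edgeR adjusted p = 0.000341), with 14.5 and 15.3 CPM in ABSC and 8.13 and 8.88 CPM in AFSC at numbers 2 and 3. Vldlr was higher in ALSC than in AFSC by 0.96 (edgeR adjusted p = 5.66e-05), with 11.4 and 10.04 CPM in ALSC and 7.23 and 5.07 CPM in AFSC at numbers 2 and 3. Asns and Aldh18a1 depended on the libraries numbered 1. For ABSC over ALSC the log2 change of Asns without them was 0.27 (edgeR adjusted p = 0.000246), whereas with them it averaged 190 CPM in ABSC and 193 CPM in ALSC. With them the log2 change was -0.02 with cell type alone in the fit and 0.05 with the block, and neither passed the test. For ALSC over AFSC it was 0.30 without them (edgeR adjusted p = 8.62e-05), 0.58 with cell type alone and 0.51 with the block. For ABSC over AFSC it was 0.57, 0.56 and 0.56 in the same order. Aldh18a1 was at -0.16 without them for ABSC over AFSC (edgeR adjusted p = 0.034), against 0.07 with cell type alone and 0.01 with the block.

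**Figure D5:**
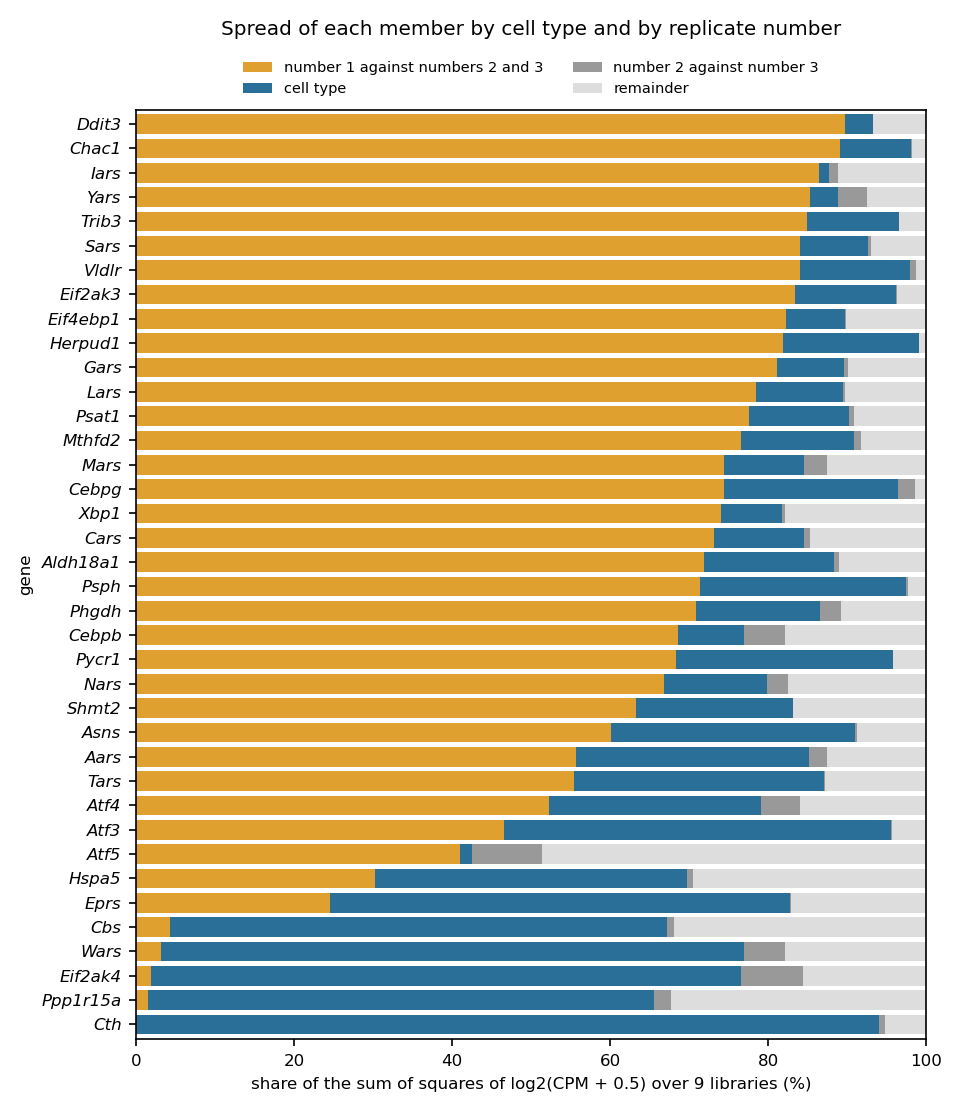
Share of the sum of squares of log2(CPM + 0.5) over the 9 libraries that falls to number 1 against numbers 2 and 3, to the cell type, to number 2 against number 3 and to the remainder, in percent, for each of the 38 genes. The number 1 share is above 50% in 29 genes, and Cth, at the bottom, is almost wholly cell type.

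Splitting the spread of each gene over the 9 libraries gave the same order. The shift of number 1 held a median of 71.6% of the sum of squares over the 38 genes and 19.9% over all genes tested, and the cell type 15.0% and 40.1%. In 29 of the 38 genes, and in 23.3% of all genes, number 1 held over 50%. At the top, Ddit3 and Chac1 had 89.8% and 89.1% in number 1. At the bottom, Cth had 94.0% in cell type, and Ppp1r15a, Eif2ak4, Wars and Cbs also had most of their spread there.

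Set beside the promoter matches, all 12 genes with the element were higher in number 1, with a median log2 change of 0.76, and 14 of the 20 with a window but no match were, with a median of 0.43. Of all genes tested 18.2% were higher, and the share among other genes with the element was not counted. The 38 genes were chosen as members of this pathway, and the difference between the 12 and the 20 was not tested. Mthfd2, Psat1, Psph and Sars are among the genes with a window and no match. Because the RNA kit does not mark the strand, reads of overlapping genes cannot be told apart, and 12 of the 38 genes overlap another tested gene: Mars and Ddit3 each other, Shmt2 overlaps Ndufa4l2, Psph Cct6a, Cebpb Tmem189, Atf5 Nup62 and Il4i1, Wars Wdr25, Yars C77080, Ppp1r15a Tulp2, Lars Rps19-ps4, Mthfd2 Gm43890 and Cth Gm43314. Of these partners, Ndufa4l2 was higher in number 1 by 1.66 on the log2 scale, Gm43890 by 0.94 and Tulp2 by 0.50, and Nup62 was lower by -0.19, so the values of Shmt2, Mthfd2, Ppp1r15a and Atf5 are less certain. The same holds for Ddit3, at a mean of 9.66 CPM in number 1 and 5.91 CPM in the others, since its partner Mars averaged 314 CPM in number 1 and 266 CPM in the others and was itself higher.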

How the data were processed

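RNA was measured in 9 libraries, 3 per cell type. The authors deposited raw read counts per gene in 1 table. HISAT2 2.0.5, featureCounts 1.5.0-p3 and the build mm9 are named in the submitters' processing notes, but of 54409 gene IDs shared with GENCODE M21 (GRCm38) 53462 had the same coordinates, so coordinates are read as GRCm38. The 346 unnamed loci (0.208% to 0.227% of counts) were left out.

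Counts were analysed with edgeR 4.0.16 in R 4.3.3 (filterByExpr, minimum count 10, minimum total 15; TMM factors 0.963 to 1.06; robust quasi-likelihood F tests, 2-sided; Benjamini-Hochberg over 16178 genes, threshold 0.05). Cell types were compared with cell type alone in the fit (6 residual degrees of freedom). The shift of number 1 was the contrast of number 1 with the mean of numbers 2 and 3 in a fit with cell type and number (4 residual degrees of freedom). Its difference between cell types came from an interaction fit (3 residual degrees of freedom), which also gave the shift within each cell type. Standard errors are the log2 change over the square root of F. Spread shares are sums of squares of log2(CPM + 0.5). The test steps were checked on simulated counts.

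Deviations from cell type means correlated at 0.515 to 0.615 between libraries numbered 1. They correlated at 0.249 to 0.358 between those numbered 2 and at 0.289 to 0.432 between those numbered 3. Between numbers 2 and 3 the correlation was 0.273 to 0.331, which overlaps both, so a pairing by numbers 2 and 3 was not shown. The number entered the fit for the shift and, as an alternative, that for the cell types. The main cell type fits left it out. No 2 libraries were identical.

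The 38 genes, the lists and the split by number were chosen with earlier results of these data known. Values in every library are given for up to 14 called genes with the largest changes and 7 fixed genes; of other lists, up to 3 called genes with the largest changes at a mean of 1 CPM or more are named. Alternatives were RLE factors, library size alone, no filter, DESeq2 1.42.0, the replicate block, each library or all libraries numbered 1 left out, and fits of 2 cell types. Promoters are from RefSeq, and 1 stretch is not reported here; Eif4ebp1, Cth, Cars, Lars, Nars and Wars had no window.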

Additional observations from a re-analysis of the deposited data

Results flagged for a closer look

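For 18 of the 38 genes the shift of number 1 differed between cell types by the interaction test, and each cell type rests on 1 library numbered 1. Differences are in log2 units with edgeR's adjusted p of the interaction. The shift in ALSC exceeded that in AFSC by 0.65 for Aldh18a1 (adjusted p = 5.55e-05), 0.51 for Psat1 (0.00041), 0.49 for Shmt2 (0.000521), 0.54 for Cars (0.000574) and 0.48 for Mthfd2 (0.00176). It did so by 0.37 for Nars (0.0125), 0.34 for Sars (0.0206), 0.31 for Gars (0.0264), 0.27 for Lars (0.0429) and 0.31 for Eif4ebp1 (0.0445). The shift in ABSC minus that in ALSC was -0.59 for Asns (2.8e-05), -0.67 for Pycr1 (0.00573), -0.45 for Cth (0.00722) and 0.49 for Cbs (0.00163). The shift in ABSC minus that in AFSC was 0.66 for Ppp1r15a (0.00176), 0.57 for Trib3 (0.0388), -0.62 for Xbp1 (0.00842) and -0.25 for Hspa5 (0.0354). DESeq2's likelihood ratio test called 8 of the 38 genes.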

How the results depend on the processing

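The genes called for number 1 in either direction, 30 in the main fit, numbered 30 to 32 under RLE factors, library size alone, no filter and DESeq2. The same range held with each library left out, and with number 2 or number 3 alone as the comparison. Within AFSC 2589 genes of all were called for number 1, against 5608 over the 3 cell types, and Atf4, Cebpb, Aars, Iars, Mars and Tars lost their call there. Cth reversed within ABSC, at -0.20.

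Cell type counts moved most. With the replicate block, 3132, 3590 and 4605 of all genes and 11, 14 and 9 of the 38 were called for ABSC over AFSC, ALSC over AFSC and ABSC over ALSC, against 1291, 1139 and 1775 and 1, 1 and 2. Without the libraries numbered 1 the counts were 4622, 4122 and 5225 of all genes and 14, 13 and 17 of the 38. Asns for ABSC over ALSC then stood at 0.27, against -0.02 in the main fit, and Aldh18a1 for ABSC over AFSC at -0.16, against 0.07. Neither value of the main fit passed the test. Leaving out each library gave 667 to 1723, 345 to 1522 and 846 to 2337 of all genes, and 0 to 2, 0 to 2 and 1 to 3 of the 38. Library size alone gave 1 of the 38 for ABSC over ALSC, no filter gave 2 for ABSC over AFSC, and DESeq2 gave 4 for ABSC over ALSC. Fits of only the 2 groups gave 2 of the 38 for ALSC over AFSC, and 1041 of all genes with 1 of the 38 for ABSC over ALSC. For the interaction DESeq2 called 359 of all genes and 8 of the 38, against 1399 and 18; leaving out libraries was not run for it. Library size alone put 60.0% of called genes higher for ALSC over AFSC, 35.1% for ABSC over ALSC and 63.3% for number 1, against 50.3%, 49.3% and 52.6% with TMM. The cause of these changes was not tested. With 2 or 3 libraries per cell type and unknown culture origin, low genes such as Ddit3 are measured less precisely than the synthetases.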

Other observations

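Between cell types, with the number left out of the fit, some genes of the other lists passed the test, and no difference from the background was tested. Of 12 amino acid transporters 2 passed for ABSC over AFSC, 2 for ALSC over AFSC and 2 for ABSC over ALSC, against 7.98%, 7.04% and 11.0% of all genes. Slc7a11, the cystine importer, was at 6.03 ± 0.435 CPM in ABSC, against 3.71 ± 0.158 CPM in AFSC (a log2 change of 0.70, edgeR adjusted p = 0.0185), and the taurine carrier Slc6a6 averaged 190 ± 9.83 CPM in ABSC and 150 ± 2.71 CPM in AFSC (0.34, edgeR adjusted p = 0.0065; SD, n = 3 each). Over ALSC, Slc6a6 and the glutamine carrier Slc38a1 were higher in ABSC by 0.43 and 0.42 on the log2 scale. In ALSC, the cationic amino acid carrier Slc7a3 averaged 348 ± 42.2 CPM, against 451 ± 19.8 CPM in AFSC (-0.38, edgeR adjusted p = 0.03; SD, n = 3 each), and Slc38a1 was lower by -0.30.

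Of 18 further ATF4 targets 1, 2 and 3 passed for the same pairs. Gadd45a, a growth arrest gene, was higher in ABSC, at 54.0 ± 12.6 CPM, than in AFSC, at 20.2 ± 2.43 CPM (log2 change 1.42, edgeR adjusted p = 0.0042; SD, n = 3 each), and by 1.86 over ALSC. Sesn2, a leucine sensor upstream of mTORC1, was lower in ALSC than in AFSC by -0.40 (edgeR adjusted p = 0.0058) and higher in ABSC than in ALSC by 0.33. Of 26 genes of the ATF6 and IRE1 arms 2, 2 and 3 passed. Creb3l2 averaged 23.5 ± 2.87 CPM in ABSC, 15.9 ± 0.648 CPM in ALSC and 8.02 ± 1.01 CPM in AFSC (SD, n = 3 each), and all 3 pairs passed the test. Dnajc3, an inhibitor of PERK, was higher in ABSC than in AFSC by 0.55 and than in ALSC by 0.44.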
